A study of Homo sapiens with 6 samples.

Results

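The 9 genes described here encode parts of the complement system and its inhibitors (C3, C1R, C1S, CFB, SERPING1, CD55 and CD59) and 2 acute-phase proteins (SAA1 and SAA2). They were taken by symbol from a count table of 58735 genes, each symbol matching 1 row. The libraries came from LN229, an established human glioblastoma line. In 3 of them, labelled HSD52_OE, the cells overexpressed HSD52, which is a long non-coding RNA, and 3 were labelled wild type and are called control. The labels give no vector, clone, batch or culture time for either group, and they do not say that replicates came from separate cultures, so p-values cover only library-to-library spread, possibly technical. The genes were proposed with the HSD52_OE against control values in view, above all C3 and SAA1, and with C3 known to vary among controls. Their differences between the groups are therefore given as a description, and calls from the fit over all genes are counted only to set them beside the share of all genes called.

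Complement is a cascade of plasma proteins that tag and lyse cells. Its classical branch opens when C1q binds a target and, of the paired proteases C1r and C1s, C1s cuts C4 and C2. Its alternative branch runs on factor B, and all branches meet at the cleavage of C3. Host cells hold the cascade in check with the C1 inhibitor SERPING1, which blocks C1r and C1s, with CD55, which speeds the decay of C3 convertases, and with CD59, which stops the final membrane pore. Serum amyloid A proteins are made mainly by liver during the acute phase of inflammation, but many tumour and stromal cells can make them and C3 when cytokines act through C/EBP, NF-kB and STAT factors.

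Library totals ranged from 17777157 to 18917790 counts, and 1 CPM, the unit of depth-scaled counts after TMM scaling, stood for 17.1 to 19.7 counts. HSD52 had 7 to 12 counts in control and 1252 to 1336 in HSD52_OE libraries. Of 10 astroglial and neural progenitor markers VIM, NES, S100B, SOX2 and OLIG2 were present in both groups and the sum was 2463 to 2725 CPM in control and 2398 to 2472 CPM in HSD52_OE libraries, while the astrocyte markers AQP4 and ALDH1L1 had 0 to 2 counts a library. Among 12 microglial markers AIF1, C1QA, C1QB and C1QC had 0 counts in all 6 libraries, and the 12 summed to 10.9 to 33.5 CPM in control and 1.56 to 1.83 CPM in HSD52_OE libraries, the control sum being mostly TMEM119. Among 12 liver markers ALB, APOB, FGA and FGG had 0 counts, and the sums were 3.76 to 9.22 and 7.01 to 10.2 CPM. The 7 endothelial markers summed to 1.98 to 3.42 and 1.68 to 2.48 CPM. Of 7 epithelial markers CDH1 and KRT5 had 0 counts, and the sum, mainly KRT8 and KRT18, was 129 to 151 CPM in control and 179 to 190 CPM in HSD52_OE libraries. The 9 fibroblast markers summed to 116 to 209 CPM in control and 51.3 to 52.7 CPM in HSD52_OE libraries. The fibroblast sum was lower in HSD52_OE libraries, as were the C3 and SAA1 values below, while the epithelial sum was higher. The fibroblast marker FBLN1 rose instead, from 5.11 ± 0.292 to 12.4 ± 0.167 CPM (mean ± SD). The lower microglial sum lay mainly in TMEM119, with 533, 563 and 186 counts in control and 7, 3 and 10 in HSD52_OE libraries. CSF1R, the other microglial marker tested, stood at 0.533 ± 0.294 and 0.557 ± 0.0604 CPM. The part of the marker sums in the C3 and SAA1 values was not tested. In bulk RNA, fewer cells of a kind and less RNA per cell cannot be told apart.

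SAA1 (chr11:18266174-18269977, plus strand) and SAA2 (chr11:18239223-18248643, minus strand) are near copies, which bears on how far their counts can be separated. Their coding sequences of 369 bases, read from GENCODE 29 transcripts on GRCh38, were 97% identical, with 11 differing bases and a longest identical run of 186 bases. The first 300 coding bases are shown because most of the differences lie there, and capitals mark the 9 bases of that stretch at which the copies differ.
SAA1: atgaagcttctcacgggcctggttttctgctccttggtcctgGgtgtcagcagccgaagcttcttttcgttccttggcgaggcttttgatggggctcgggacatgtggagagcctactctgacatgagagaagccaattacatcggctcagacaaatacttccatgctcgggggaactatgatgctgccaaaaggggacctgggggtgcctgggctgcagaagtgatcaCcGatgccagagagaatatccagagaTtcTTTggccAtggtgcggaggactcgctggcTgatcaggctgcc
SAA2: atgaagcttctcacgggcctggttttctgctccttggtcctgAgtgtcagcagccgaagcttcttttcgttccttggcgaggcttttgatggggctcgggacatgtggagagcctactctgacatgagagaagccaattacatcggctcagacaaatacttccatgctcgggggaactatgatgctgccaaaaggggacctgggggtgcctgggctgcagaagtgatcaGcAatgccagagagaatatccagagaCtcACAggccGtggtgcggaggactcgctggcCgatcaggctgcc
The differences cluster in the second part of the stretch. Of all 100-base words in annotated SAA1 transcripts, 28.5% also occurred in SAA2 or the read-through gene SAA2-SAA4. A read that lies wholly within the identical run fits both copies, so the 2 counts are uncertain relative to each other.

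The other genes were less entangled, with CFB as the exception. C3 (chr19:6677704-6730562, minus strand), SERPING1 (chr11:57597387-57614853, plus strand) and CD55 (chr1:207321376-207386804, plus strand) had no exonic base in common with another gene. CD59 (chr11:33703010-33736491, minus strand) shared 6.07% of its exonic bases with AL049629.2. C1R (chr12:7080199-7092607, minus strand) shared 11.4% with its paralogue C1RL, and C1S (chr12:6988259-7071032, plus strand) shared 3.54% with EMG1. CFB (chr6:31945650-31952084, plus strand) shared 45.5% with C2 and a read-through gene of both. Neither the handling of reads on shared bases nor the strand setting of the counting is given in the sources used here. How such reads were assigned is therefore not known.

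C3, on whose product all complement branches converge, was lower in every HSD52_OE library. It had 299, 66.8 and 143 CPM in control replicates 1 to 3 and 8.77, 6.92 and 9.34 CPM in HSD52_OE replicates 1 to 3. The groups did not overlap, and control replicate 1 stood above the other controls. The control mean of 170 ± 119 CPM stood against 8.34 ± 1.27 CPM after overexpression (SD, n = 3). The log2 fold change, HSD52_OE over control, was -4.34 ± 0.74 (standard error), and -3.66 without control replicate 1. Library by library, the lowest control held 7.15 times the highest HSD52_OE library, and the highest control 43.3 times the lowest HSD52_OE library. The size of the difference therefore rests on the control chosen, while its direction was the same for every pair of libraries.

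**Figure D1:**
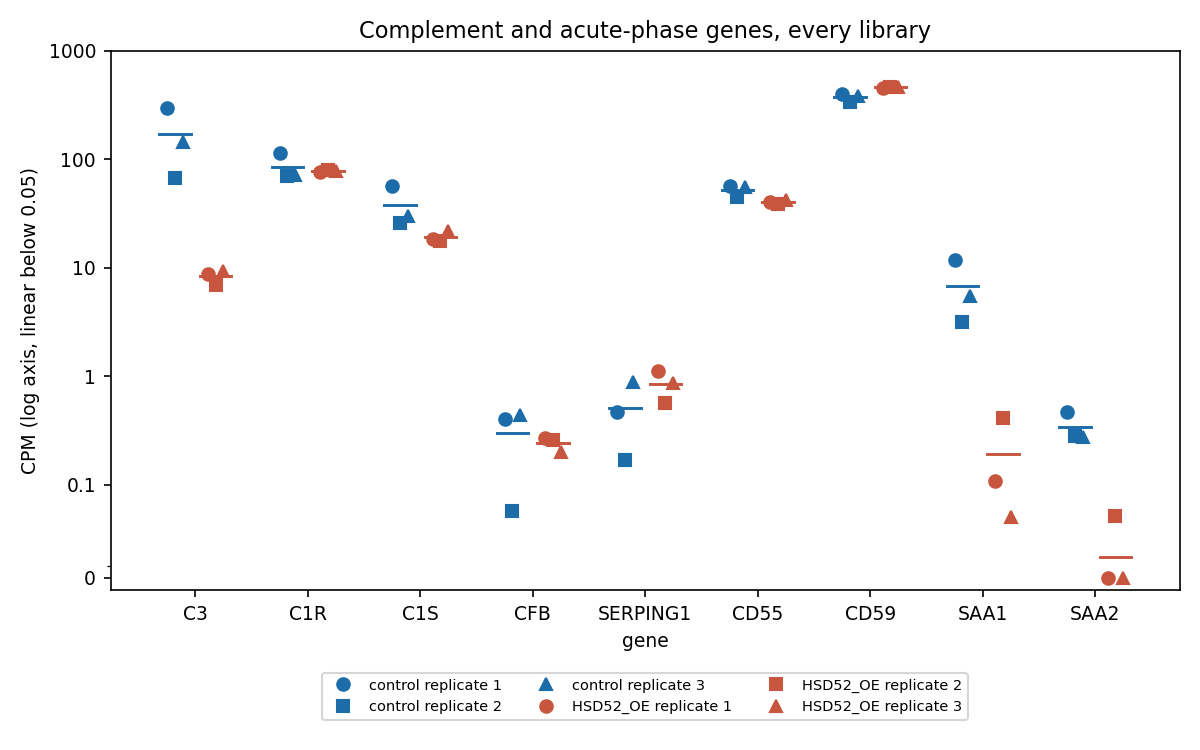
CPM of each of the 9 genes (log axis, linear below 0.05) in every library, with control in blue, HSD52_OE in red, marker shape for the replicate and a bar for the group mean. C3 and SAA1 lie lower in all HSD52_OE libraries, CD59 is the most abundant gene and slightly higher, and CFB, SERPING1 and SAA2 lie near the detection limit.

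The opening proteases differed from each other. C1R had 115, 69.6 and 71.9 CPM in the control and 75.9, 79.0 and 78.0 CPM in the HSD52_OE libraries. The groups overlapped, with control replicate 1 above and the other controls below all HSD52_OE libraries, and the log2 fold change was -0.14 ± 0.17. C1S had 57.0, 25.7 and 30.2 CPM in control and 18.5, 17.6 and 21.7 CPM in HSD52_OE libraries. Here the groups did not overlap, although the lowest control exceeded the highest HSD52_OE library only 1.18 times. The log2 fold change of C1S was -0.96 ± 0.32, and -0.55 without control replicate 1. Within each library, which needs no scaling, C1S held 49.6, 37.0 and 42.1 counts per 100 C1R counts in control and 24.4, 22.3 and 27.9 in HSD52_OE cells. The ratio of the paired proteases thus lay lower in every HSD52_OE library than in every control.

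CFB, the protease of the alternative C3 convertase, was close to undetected. It had 7, 1 and 8 counts in the control and 5, 5 and 4 counts in the HSD52_OE libraries and was removed by the low-count filter. The ratio of summed counts, control over HSD52_OE, was 1.25 with an exact binomial 95% interval of 0.571 to 2.76. Such intervals cover counting error only, and this one allows a change in either direction.

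Of the inhibitors, CD59 was the most abundant of the 9 genes. It had 403, 335 and 379 CPM in control and 456, 459 and 461 CPM in HSD52_OE libraries. Every HSD52_OE library lay above every control, and the log2 fold change was 0.30 ± 0.09. CD55 had 56.4, 45.2 and 55.3 CPM in control and 40.7, 39.1 and 42.3 CPM in HSD52_OE libraries. Its groups did not overlap either, but in the other direction, with a log2 fold change of -0.36 ± 0.10. The 2 membrane inhibitors were thus displaced against each other: CD55 had 14, 13.5 and 14.6 counts per 100 CD59 counts in the controls and 8.92, 8.51 and 9.16 in the HSD52_OE libraries. SERPING1 had 8, 3 and 16 counts in control and 21, 11 and 17 in HSD52_OE libraries, which overlap. It passed the filter through its HSD52_OE counts alone. Its log2 fold change was 0.73 ± 0.49, and at this depth the direction is uncertain, the ratio of summed counts, HSD52_OE over control, being 1.66 with a 95% counting interval of 1.02 to 2.77 that leaves out the spread between libraries.

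Of the 7 genes fitted, SAA1 had the log2 fold change farthest from 0. It had 203, 56 and 99 counts in the control and 2, 8 and 1 counts in the HSD52_OE libraries, or 11.8, 3.19 and 5.49 against 0.108, 0.416 and 0.0508 CPM. The groups did not overlap, and the single library with 8 counts, HSD52_OE replicate 2, set most of the HSD52_OE mean. The log2 fold change was -5.11 ± 0.75, with -6.32 without that library and -4.47 without control replicate 1. The ratio of summed counts, control over HSD52_OE, was 35.5 with a 95% counting interval of 19.6 to 71.8. SAA1 passed the filter through its control counts alone. Set against C3, SAA1 held 3.96, 4.77 and 3.85 counts per 100 C3 counts in the controls and 1.23, 6.02 and 0.543 in the HSD52_OE libraries, so this ratio overlapped between the groups. SAA2 had 8, 5 and 5 counts in control and 0, 1 and 0 in HSD52_OE libraries and was not tested. Its ratio of 18 to 1 summed counts came to 19.7 after scaling, with a counting interval of 3.10 to 819. Since the copies share sequence, part of the SAA2 counts may belong to SAA1.

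**Figure D2:**
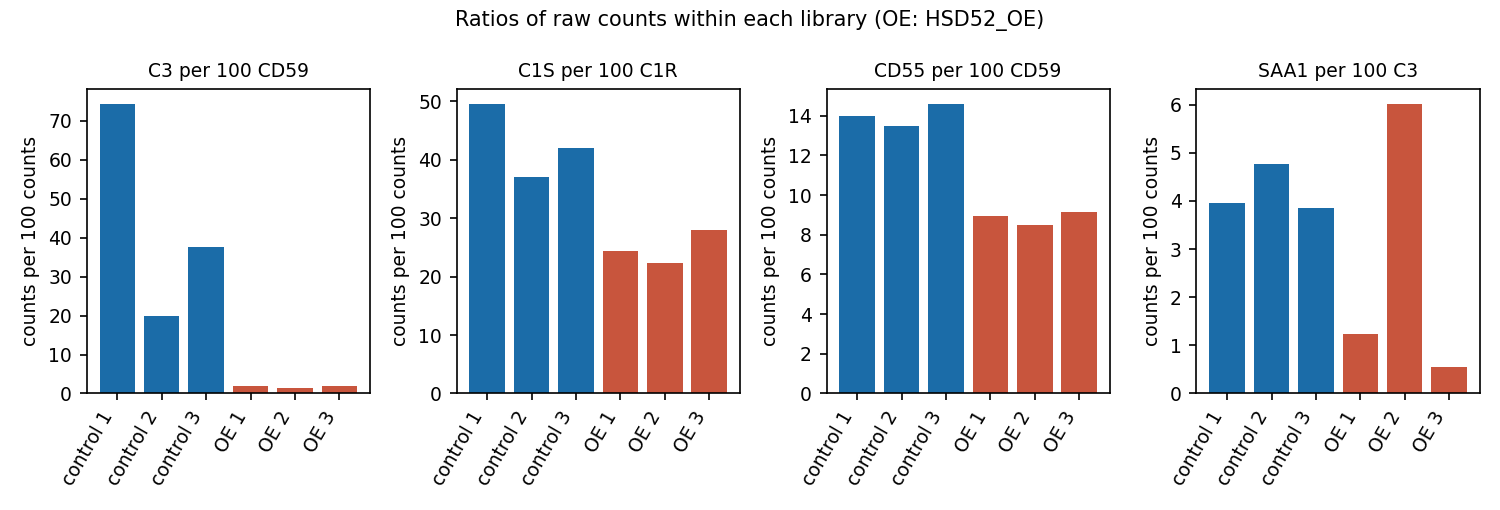
Raw counts of 1 gene per 100 counts of another in each library, with control bars in blue and HSD52_OE bars in red. C3 per 100 CD59 counts ran from 19.9 to 74.4 in control and from 1.51 to 2.03 in HSD52_OE libraries, while SAA1 per 100 C3 counts overlapped between the groups.

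Of the 9 genes 7 passed the filter, and of these 4 (C3, C1S, CD55 and SAA1) were called lower and 1 (CD59) higher at an adjusted p under 0.05 (edgeR, quasi-likelihood, Benjamini-Hochberg). Over all 16322 genes tested, 50.6% were called, 25.6% lower and 25.0% higher. Of the 7, the same 5 were those whose groups did not overlap, as in 58.9% of all genes, 29.3% in the lower and 29.6% in the higher direction. C3 and SAA1 were called and at least 2-fold lower, as were 3.49% of all genes. These genes were chosen on this contrast, so nothing is read from the counts. The call of C1S was lost in 7 of 13 alternatives, among them library totals, the limma-voom fit, and the fits without any 1 of the HSD52_OE libraries or control replicate 3. That of CD55 was lost with library totals, and that of CD59 without any 1 of the HSD52_OE libraries.

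Levels of different genes are compared per kilobase of exon. In control cells CD59 stood first at 36.0 ± 3.29 CPM per kb, followed by C3 at 20.4 ± 14.2, C1R at 14.5 ± 4.32, CD55 at 8.85 ± 1.05, SAA1 at 8.60 ± 5.64 and C1S at 5.83 ± 2.61 CPM per kb (SD, n = 3). The ranges of the neighbours CD59 and C3, C3 and C1R, CD55 and SAA1, and SAA1 and C1S overlapped, so their order is not fixed by these libraries. In HSD52_OE cells the order was CD59 at 44.3 ± 0.237, C1R at 13.2 ± 0.263, CD55 at 6.88 ± 0.270, C1S at 2.99 ± 0.334, C3 at 0.831 to 1.12 over the libraries and SAA1 at 0.241 ± 0.247 CPM per kb. Down to SAA1 each range was separate from the next. C3 lay between C1S and SAA1 in this order. SERPING1, CFB and SAA2 reached at most 0.314 CPM per kb in a library.

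Summed per kilobase, the activating components C3, C1R, C1S and CFB reached 64.3, 23.8 and 34.1 in the control and 16.9, 17.0 and 17.8 CPM per kb in the HSD52_OE libraries. The inhibitors CD55, CD59 and SERPING1 reached 48.6, 40.1 and 46.2 in control and 51.3, 51.1 and 51.9 CPM per kb in HSD52_OE libraries. Most of the first difference was C3, and the second sum was mainly CD59. Activators exceeded inhibitors in control replicate 1 and in no other library.

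The control libraries differed among themselves in these genes. That C3 varied among controls was known when the genes were chosen, so their spread and order are given as a description. The highest control exceeded the lowest 4.48 times for C3, 3.72 times for SAA1, 2.21 times for C1S and 1.65 times for C1R, against a median of 1.27 over all genes tested. For CD55 and CD59 the ratio was 1.25 and 1.20. The controls had a shared order: replicate 1 was highest, replicate 3 next and replicate 2 lowest in 6 of the 7 genes tested, an order found in 14% of all genes tested. With library totals, a scaling examined for this order after seeing the data, it held for 5 of the 7, without CD55, and for 13.5% of all genes. The fibroblast marker sums of 209, 208 and 116 CPM in control replicates 1 to 3 did not follow this order. Among HSD52_OE libraries C3 varied 1.35 times, C1R 1.04 times and CD59 1.01 times.

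Over the 6 libraries, and as a description only, the log2 CPM of C3 had a Pearson r of 0.959 with SAA1, 0.957 with CD55 and 0.915 with C1S, 0.449 with C1R and -0.721 with CD59. These values contain the difference between the groups. Among 10868 protein-coding genes with a mean of at least 5 CPM, the profiles most like that of C3 were AP2B1 (r = 0.9980), POGZ, TMEM131, CADM3 and OSBPL10 (r = 0.9957). AP2B1, a clathrin adaptor subunit, had 297, 247 and 277 CPM in control and 198, 197 and 203 CPM in HSD52_OE libraries, a far smaller range than that of C3.

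Other complement genes held changes in both directions. Of 43 genes listed beside the 9, 31 had counts, 15 were tested, 8 rose and 3 fell in the edgeR test, where 25.0% and 25.6% of all genes tested did. The median log2 fold change of the 15 was 0.45, against 0.01 for all genes tested. This list and those below were drawn up from textbook membership, with earlier results of these data known. The C1q genes C1QA, C1QB and C1QC, C6, C8A, C8B and C9 had 0 counts, and C2, C4A and C4B, whose products form the classical C3 convertase, had 0 to 7 counts a library. C4A and C4B are near-identical copies. Of the terminal genes C5 rose from 13.5 ± 1.33 to 18.5 ± 1.07 CPM, and C7 from 0.326 ± 0.273 to 1.13 ± 0.376 CPM. Of the recognition genes MBL2 and COLEC11, lectins that start the lectin branch, rose by 2.11 ± 0.53 and 1.75 ± 0.44 on the log2 scale from under 0.3 CPM. MBL2, COLEC11 and C7 passed the low-count filter through their HSD52_OE counts alone, so they could be called in 1 direction only. C1RL, the C1r-like protease next to C1R, rose from 41.4 ± 5.10 to 52.7 ± 2.28 CPM.

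Soluble and membrane regulators of complement moved in both directions. CFI, encoding factor I, the protease that cuts C3b, had 164, 157 and 187 counts in control and 434, 481 and 474 in HSD52_OE libraries. It rose from 9.63 ± 0.723 to 24.1 ± 0.836 CPM (log2 fold change 1.33 ± 0.11, edgeR adjusted p = 2.77e-07). Every HSD52_OE library lay above every control. CD46, the membrane cofactor for factor I, rose from 86.5 ± 9.73 to 123 ± 2.87 CPM. CPN1, a subunit of the carboxypeptidase that trims C3a and C5a, rose from 1.29 ± 0.302 to 8.62 ± 1.18 CPM. CSMD3, a large membrane protein with complement control domains, fell from 2.33 ± 0.299 to 0.491 ± 0.294 CPM, having passed the filter through its control counts. CSMD1 fell from 11.8 ± 1.47 to 8.64 ± 0.482 CPM, a call lost with library totals and without HSD52_OE replicate 2 (highest edgeR adjusted p = 0.0577). CLU stood at 6.79 ± 2.37 and 5.38 ± 0.409 CPM and SUSD4 at 3.65 ± 0.701 and 3.53 ± 0.244 CPM, and neither passed.

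**Figure D3:**
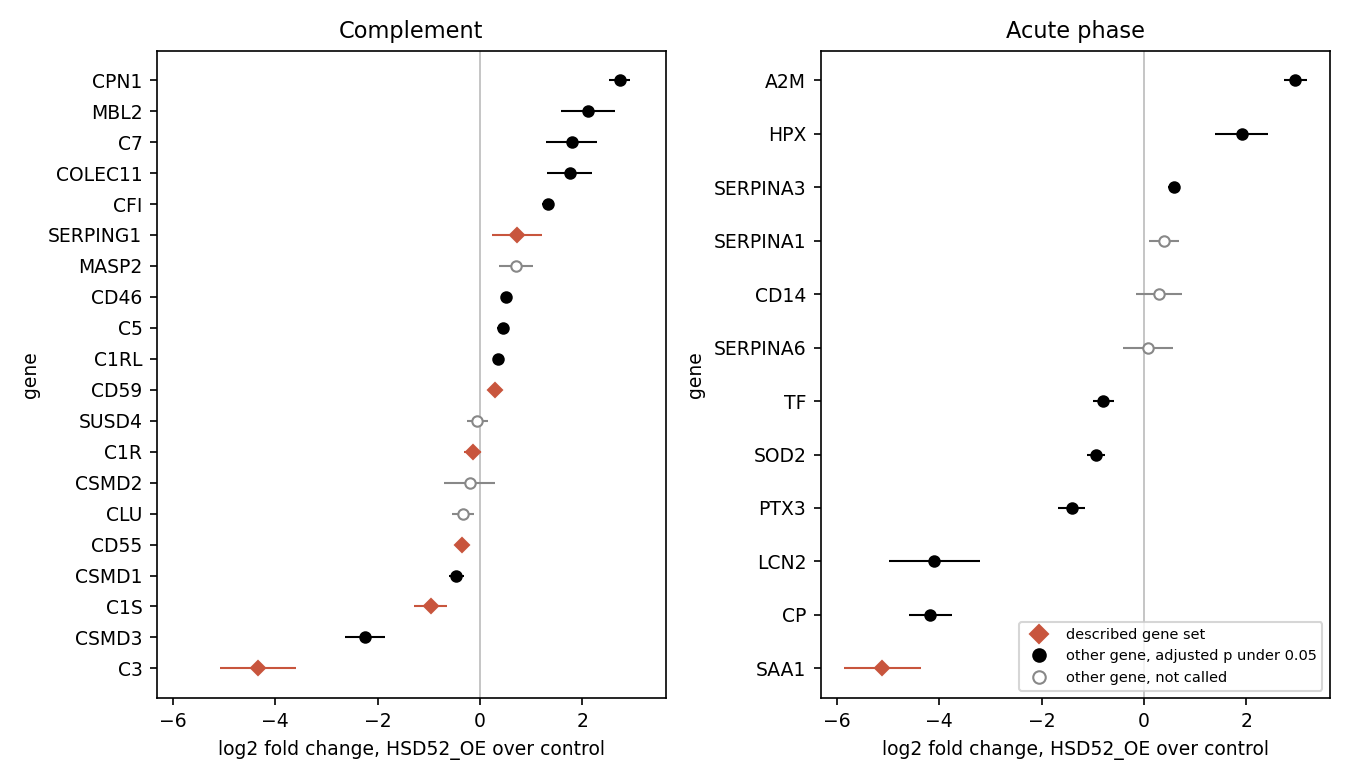
Log2 fold change (HSD52_OE over control) with its standard error for tested complement genes (left, 1 not shown) and acute-phase genes (right). Red diamonds are the 7 tested genes of the described set, shown without a test, filled circles are other genes past the threshold and open circles those that did not pass. C3 at -4.34 and SAA1 at -5.11, both chosen with these values in view, lie lowest among the complement and acute-phase genes shown. CPN1 and A2M lie highest.

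Other acute-phase genes held strong changes in both directions. Of 30 listed, 23 had counts, 11 were tested, 3 rose and 5 fell, where 25.0% and 25.6% of all genes did, and the median log2 fold change was 0.08. The classical liver products CRP, APCS, ORM1, HP, FGA and FGG had 0 counts, and SAA4, the constitutive member of the SAA cluster, had 1 count in all. LCN2, an iron-chelating lipocalin, had 7503, 1088 and 5913 counts in control and 278, 266 and 383 in HSD52_OE libraries. It fell from 276 ± 193 to 16.1 ± 2.97 CPM (log2 fold change -4.10 ± 0.89, edgeR adjusted p = 0.0209), with controls in the order seen for C3. The call was lost without any 1 of the HSD52_OE libraries and without control replicate 1 or 3, and with the replicate number as a block, with adjusted p over all alternatives from 1.39e-07 to 0.0855. CP, the copper-carrying ferroxidase ceruloplasmin, had 110, 44 and 84 counts in control and 6, 3 and 5 in HSD52_OE libraries (log2 fold change -4.18 ± 0.42, edgeR adjusted p = 1.38e-06) and passed the filter through the control counts alone. PTX3, a pentraxin made outside the liver, fell from 15.3 ± 5.72 to 5.72 ± 0.891 CPM and SOD2, the mitochondrial superoxide dismutase, from 58.2 ± 16.8 to 30.2 ± 0.139 CPM. TF, the transferrin gene and a negative acute-phase reactant, fell from 89.5 ± 27.8 to 51.7 ± 4.85 CPM, with an adjusted p = 0.0707 in edgeR's test without control replicate 3.

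The genes of the acute-phase list that rose encode protease inhibitors and a haem carrier, and being listed does not show that they respond to inflammation in these cells. A2M, the broad inhibitor alpha-macroglobulin, had 655, 378 and 689 counts in control and 5469, 4561 and 4548 in HSD52_OE libraries. It rose from 32.7 ± 9.65 to 254 ± 34.9 CPM (log2 fold change 2.96 ± 0.22, edgeR adjusted p = 1.13e-05). SERPINA3, the antichymotrypsin gene, rose from 14.9 ± 1.39 to 22.4 ± 0.961 CPM. HPX, the haem-binding hemopexin, rose from 0.189 ± 0.0862 to 0.735 ± 0.251 CPM, with an adjusted p = 0.0516 in edgeR's test without HSD52_OE replicate 1, and passed the filter through its HSD52_OE counts alone. SERPINA1, whose product inhibits neutrophil elastase, stood at 6.04 ± 2.91 and 7.89 ± 1.63 CPM and did not pass. The control order of C3 recurred in 6 of the 11 acute-phase genes tested (SERPINA1, CP, LCN2, SOD2, TF and SERPINA6) and in 4 of the 15 complement genes, where 14% of all genes have it. With library totals these counts were 6 and 6. Of the genes named, C1RL, COLEC11, C7, CFI, CD46, CSMD1, CSMD3, PTX3, SERPINA3, CP, A2M, SOD2 and TF share ground with other annotated genes, so their counts are uncertain when strand is unknown.

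Among 19 tested transcription factors known to act on such genes, 1 rose and 13 fell, where 25.0% and 25.6% of all genes tested did. Of the protein-coding genes tested, 21.4% rose and 30.1% fell. The median log2 fold change was -0.56, against 0.01 for all genes and -0.06 for protein-coding genes. The list was drawn up with earlier results of these data known, so nothing is read from these counts. CEBPB, a C/EBP factor of the acute phase, fell from 356 ± 11.2 to 97.9 ± 1.94 CPM and CEBPD, another, from 83.0 ± 12.7 to 10.8 ± 0.818 CPM. Of the NF-kB genes RELB and NFKB2 fell, with log2 fold changes of -1.27 ± 0.12 and -1.20 ± 0.12. NFKB1 and RELA fell with -0.70 ± 0.10 and -0.56 ± 0.08. STAT3, CEBPG and the NF-kB gene REL (-0.36 ± 0.15) were among 5 factors that did not pass. STAT3 stood at 175 ± 19.1 and 177 ± 4.32 CPM and CEBPG at 32.6 ± 2.87 and 30.3 ± 0.0693 CPM. Of 15 cytokines and receptors tested, 2 rose and 6 fell, beside the same shares of all genes. OSMR, the oncostatin M receptor, fell from 134 ± 15.3 to 65.3 ± 1.69 CPM and IL1A from 6.86 ± 2.50 to 2.31 ± 0.332 CPM, while IFNGR1 rose from 23.0 ± 2.59 to 30.6 ± 1.34 CPM and IFNGR2 fell from 121 ± 12.8 to 81.2 ± 3.55 CPM. CEBPB, RELA, REL, OSMR and IFNGR2 overlap other annotated genes and are uncertain in the same way. The part of these factors, cytokines and receptors in the C3 and SAA1 values was not tested.

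Receptors that bind complement fragments or SAA were split. Among the 11 tested, 5 rose and 2 fell, where 25.0% and 25.6% of all genes tested did, and the median log2 fold change was -0.04. C3AR1, ITGAX and CD93, which rose, passed the filter through their HSD52_OE counts, so they could be called in 1 direction only. C3AR1, the receptor of the anaphylatoxin C3a, had 12, 11 and 5 counts in control and 38, 47 and 43 in HSD52_OE libraries (log2 fold change 2.05 ± 0.34, edgeR adjusted p = 0.000161). ITGAX, a subunit of a receptor for cleaved C3, rose from 0.228 ± 0.197 to 1.48 ± 0.176 CPM, and TLR4 rose from 40.1 ± 0.924 to 70.8 ± 1.91 CPM. SCARB1, a lipoprotein receptor that also takes up SAA, fell from 345 ± 87.3 to 140 ± 4.18 CPM, and the endocytic receptor LRP1 from 206 ± 56.2 to 87.4 ± 7.48 CPM. CALR and C1QBP, which bind C1q, stood at 1285 ± 230 and 1232 ± 30.7 CPM and at 311 ± 31.1 and 292 ± 5.56 CPM and did not pass. ITGAX, TLR4, LRP1, CALR and C1QBP overlap other annotated genes.

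The surroundings of the genes differed by locus. Of 142 tested genes that started within 500 kb of the table's start of any of the 9, 44 rose (31.0%) and 32 fell (22.5%), near the 25.0% and 25.6% of all genes tested, and their median log2 fold change was 0.09. Near C1S, on the short arm of chromosome 12, 20 of 40 tested genes rose and 2 fell (median 0.33), and the window of C1R, which shares many of them, held 17 higher and 2 lower of 34. C1S at -0.96 and C1R at -0.14 lay below that median. Some genes that rose in these windows, such as PTPN6 and ACSM4 with control means of 0.287 and 0.381 CPM, passed the filter through their HSD52_OE counts. They could be called in 1 direction only, so the counts of higher genes are partly set by the filter. EMG1, a ribosome assembly gene that overlaps C1S, rose from 72.6 ± 10.1 to 112 ± 6.49 CPM, and CLSTN3 rose from 32.9 ± 7.57 to 45.7 ± 3.13 CPM. Near C3, 2 of 16 rose and 8 fell (median -0.28), among them TRIP10, from 67.0 ± 4.92 to 52.6 ± 1.61 CPM. Within 500 kb of SAA1, 2 of 14 rose and 3 fell (median 0.09). The next lowest fold changes were -1.08 for PSPN near C3 and -0.67 for SERGEF near SAA1, both named after their values were seen.

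**Figure D4:**
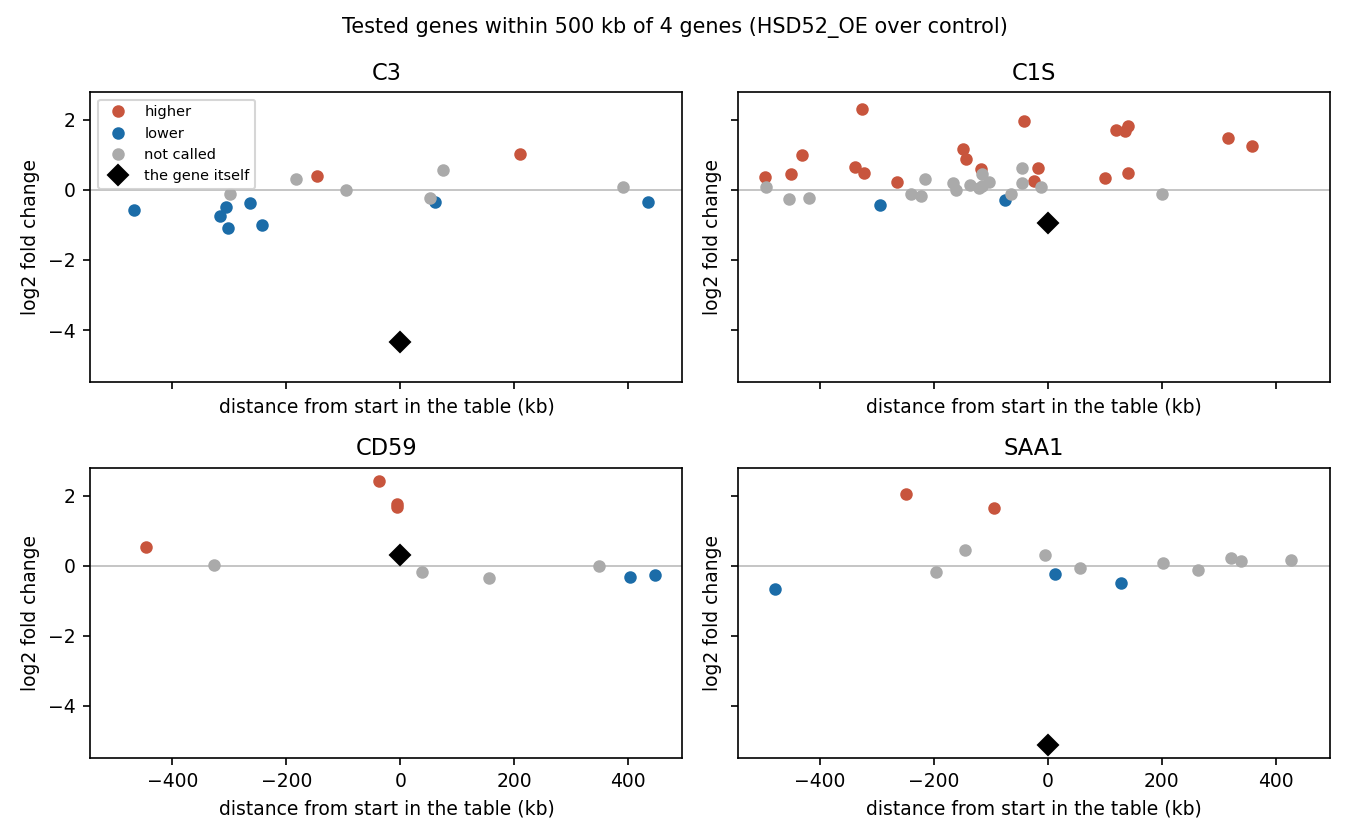
Log2 fold change (HSD52_OE over control) of tested genes against the distance of their start from that of C3, C1S, CD59 or SAA1 (black diamond), in kb and by the table's lower coordinate. Red points are higher, blue lower and grey not called. Near C1S 20 of 40 tested genes are higher, some having passed the filter through their HSD52_OE counts. C3 and SAA1 lie below their tested neighbours, but were chosen with these values in view.

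Near CFB, in the major histocompatibility region of chromosome 6, 10 of 44 tested genes rose and 11 fell (median -0.02). EHMT2, a histone methyltransferase, fell from 97.6 ± 14.2 to 64.9 ± 2.06 CPM and NEU1, a lysosomal sialidase, from 75.6 ± 16.6 to 52.9 ± 0.855 CPM. DXO rose from 18.6 ± 1.01 to 24.2 ± 0.931 CPM. Near SERPING1 3 of 14 rose and 6 fell (median -0.22), with UBE2L6, an interferon-induced conjugating enzyme, going from 26.9 ± 2.39 to 19.4 ± 2.11 CPM. TIMM10 rose from 32.7 ± 7.61 to 45.7 ± 1.24 CPM. Near CD55 3 of 4 rose and 0 fell, and near CD59 4 of 10 rose and 2 fell. Among the latter AL049629.2, which overlaps CD59, rose from 0.382 ± 0.239 to 1.22 ± 0.272 CPM, having passed the filter through its HSD52_OE counts. EMG1, CLSTN3, TRIP10, EHMT2, DXO and AL049629.2 overlap other genes and are uncertain when strand is unknown.

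RefSeq promoter windows (GRCh38.p14) were matched for 4 of the 9 genes, C1R, CFB, CD55 and CD59. The window of CD59 is shown because this gene was the most abundant and moved against CD55. It runs 5′ to 3′ on the minus strand, chr11:33736492-33736729, up to the first annotated exon, and capitals mark the match in this window among 6 motifs searched, a STAT-type one.
CD59: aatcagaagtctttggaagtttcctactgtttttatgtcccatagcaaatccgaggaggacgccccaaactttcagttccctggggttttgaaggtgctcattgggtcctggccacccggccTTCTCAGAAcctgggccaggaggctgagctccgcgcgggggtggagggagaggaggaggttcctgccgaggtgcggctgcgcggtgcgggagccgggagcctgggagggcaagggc
The motifs were searched on both strands of the 250 bases before each start. The kB-type motif was in 54.4% of 35116 such windows, the C/EBP-type motif TTNNGNAA in 33.2%, the STAT-type motif TTCNNNGAA in 6.57%, the ISRE-type motif in 3.02%, the GC box GGGCGG in 42.6% and the TATA-type motif TATAAA in 10.7%. The window of CFB held 4 kB-type matches, which can overlap each other, and 1 each of the STAT, ISRE and TATA types, although CFB had at most 8 counts in a library. The window of CD55 held 1 kB-type match and 1 GC box, and the windows of C1R 2 C/EBP-type matches at 1 start and 1 each of the kB, C/EBP and STAT types at another. CD59 has 4 starts in the table. The next start downstream of the one shown, whose window overlaps it, held the same STAT-type match with 2 kB-type matches and 2 GC boxes, another start held 2 C/EBP-type matches and the last 1 kB-type match. A match describes letters and is no evidence of binding.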

How the data were processed

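Poly-A selected RNA was sequenced from 6 LN229 libraries, 3 HSD52_OE and 3 control. The authors deposited a table of raw counts for each gene, made with CASAVA, HISAT2 2.0.5 and featureCounts 1.5.0-p3 on hg38, per the submitters' processing notes. The handling of reads that overlap several genes or map more than once is not given in the sources used here. It could lower the counts of SAA1, SAA2 and CFB. Every start, end and strand in the table equalled that of GENCODE 29.

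Genes passing filterByExpr were scaled by TMM and fitted by quasi-likelihood in edgeR 4.0.16 under R 4.3.3 (2-sided, robust, group alone, Benjamini-Hochberg over all genes tested, threshold 0.05). DESeq2 1.42.0 and limma 3.58.1 served as alternatives. The steps were tested on simulated data. Values are mean ± SD over 3 libraries, and log2 fold changes carry standard errors. Counting intervals are exact binomial 95% intervals on summed counts. Correlations used log2 CPM with a prior count of 2.

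The 9 genes and the lists were chosen with earlier results of these data known. Named beside the 9 were, in each list, up to 6 genes of smallest p past the threshold, complement and acute-phase genes of at least 10 CPM in either group, called neighbours within 100 kb, and the 5 profiles most like C3. Not all genes that the rule allows are printed, and 1 complement gene is not reported here. CLU, SUSD4, SERPINA1, STAT3, CEBPG, NFKB1, REL, CALR, C1QBP and genes with few or no counts were named outside the rule, after their values were seen.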

Additional observations from a re-analysis of the deposited data

How the results depend on the processing

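The alternatives were RLE size factors, library totals, no low-count filter, at least 1 CPM in 3 libraries, DESeq2, limma-voom, a replicate block and each library left out. Library totals moved the all-gene median of the log2 fold change from 0.01 to 0.13 and gave 5337 higher and 2933 lower genes, against 4086 and 4173. The number of other complement genes that rose went from 8 to 5 with at least 1 CPM in 3 libraries, since low genes drop out. The number of acute-phase genes that fell went from 5 to 3 without control replicate 3, and over the libraries left out it ran from 3 to 5. Of the neighbours, 21 fell with library totals, against 32. Within 100 kb, 15 of 38 tested genes rose (39.5%) and 7 fell (18.4%), where 25.0% and 25.6% of all genes tested did. Some of those that rose, such as PTPN6 and AL049629.2, passed the filter through their HSD52_OE counts. No called result tabulated here reversed in any alternative run. SAA2 gave no ratio without HSD52_OE replicate 2, which held its only count in that group. Of 65 named genes outside the 9, 56 had the same call in every alternative run. The replicate numbers were not stated to pair libraries. Deviations of same-numbered libraries correlated at 0.038, 0.031 and 0.033, below the 0.1 set for pairing, although each library correlated best with its own number. With the replicate block 4210 genes were higher and 4226 lower, and LCN2 lost its call. CFB, SERPING1, SAA2 and SAA1 in HSD52_OE cells are limited by depth.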

Other observations

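CD55 and CD59 are held in the membrane by a glycosylphosphatidylinositol (GPI) anchor, and the genes that build this anchor were examined beside them. Of 27 tested genes of GPI anchor synthesis 6 rose and 4 fell, where 25.0% and 25.6% of all genes tested did, and the median log2 fold change was 0.01. PIGS, a subunit of the transamidase that attaches the anchor, fell from 161 ± 31.7 to 55.9 ± 1.68 CPM, and PIGK, the catalytic subunit of the same enzyme, rose from 67.8 ± 6.86 to 92.9 ± 2.40 CPM. PIGL, a deacetylase of an early step, rose from 5.42 ± 0.529 to 13.8 ± 1.0 CPM, and PIGW from 16.9 ± 0.505 to 26.7 ± 0.626 CPM. All 4 overlap other annotated genes, which leaves their counts uncertain when strand is unknown. Of the contact system, whose proteases SERPING1 also inhibits, F12 stood at 21.7 ± 2.38 and 20.5 ± 1.46 CPM and did not pass. The bradykinin receptor gene BDKRB2, which also overlaps other genes, had 20, 25 and 16 counts in control and 2, 0 and 0 in HSD52_OE libraries (edgeR quasi-likelihood adjusted p = 4.61e-05, with 0.000566 as the highest over its alternatives). It passed the low-count filter through its control counts alone, so it could be called in 1 direction only.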
